A study of Mus musculus with 15 samples.

Results

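The genes described here are 44 interferon-stimulated and antigen presentation genes in the interscapular brown fat of high-fat-diet mice given an agonist of the FGFR1/KLB receptor complex. They were chosen by name for their known roles, with earlier results of these data known. Of the 44, 42 had a probe set on the array that carried their symbol alone, out of 18194 such genes. The remaining genes were Isg15, whose probe set is shared with another symbol, and Ifi44, which had no single-symbol probe set in the annotation used, and neither has a value here. Where a gene had several probe sets, the one with the highest mean over all samples was used. 39 of the 42 lay above a limit on low intensities, set at a log2 intensity of 5.06 (40% of probe sets have a lower mean), and were tested with 13174 genes in all. Stat2, Oas3 and Mx1 lay under it and have values but no test.

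All 15 animals were adult male wild-type C57BL/6N mice on a high-fat diet, and the 5 samples of each group, which the design text calls biological replicates, are taken here as 1 animal each. The 5 aFGFR1/KLB mice (numbers 41 to 45) received 1 intraperitoneal dose of bFKB1, an antibody that activates FGFR1 bound to its co-receptor KLB, at 10 mg/kg. The 5 FGF21 mice (36 to 40) received human FGF21, the hormone that signals through the same complex, in 2 injections a day of 1 mg/kg each. For the 5 control mice (31 to 35) the labels name no injected substance, and all tissue was taken on day 5. The brown fat marker Ucp1, the uncoupling protein of heat production, averaged 14.78 on the log2 scale in aFGFR1/KLB mice, 14.69 in FGF21 mice and 14.59 in control mice. The adipocyte hormone gene Adipoq averaged 14.16 in aFGFR1/KLB mice, 14.18 in FGF21 mice and 14.13 in control mice.

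Type I interferons are secreted by cells that detect foreign or misplaced nucleic acid. Type I interferon acts through the kinases Jak1 and Tyk2 on a complex that holds Stat2 and Irf9 and binds the interferon-stimulated response element in DNA, whereas signals of interferon gamma act mainly at the gamma-activated site. The genes so induced encode sensors of viral RNA, enzymes that block viral replication, GTPases that attack the vacuoles of intracellular pathogens, chemokines for T cells, and the proteasome subunits and transporters that load peptides on MHC class I. Adipose tissue holds resident macrophages and lymphocytes beside its adipocytes, and all these cells can express such genes, so in a whole-tissue sample more cells of a type and more RNA per cell cannot be told apart.

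The RefSeq promoter table (GRCm38.p6) held 34 of the 44 genes, each with 300 bases from 250 before to 50 after the start site. The core of the interferon-stimulated response element, GAAA repeated after any 2 bases, searched on both strands, was found for 20 of the 34 (58.8%), against 3.99% of 27025 genes in the table. The gamma-activated site, TTC and GAA around any 3 bases, which reads the same on both strands, was found for 11 of the 34 (32.4%), against 9.55% of genes. The response element was present for 6 of 7 genes of interferon-inducible GTPases, 3 of 3 of nucleic acid sensors, 2 of 3 of the IFIT family and 1 of 4 of antigen presentation. A gene with several promoters was counted if any of them held the element. A match describes letters in a window and not a bound site. To show the element in its context, 1 promoter is given for each of 4 roles, 5′ to 3′ on the strand of the gene, with the element in capitals. Where it lies on the other strand, the capitals read as its reverse complement. The promoters are those of Stat2 (chr10:128270248-128270547, plus strand), Eif2ak2 (chr17:78882523-78882822, minus strand), Ifit1 (chr19:34640639-34640938, plus strand, 2 elements) and Igtp (chr11:58199306-58199605, plus strand).
Stat2: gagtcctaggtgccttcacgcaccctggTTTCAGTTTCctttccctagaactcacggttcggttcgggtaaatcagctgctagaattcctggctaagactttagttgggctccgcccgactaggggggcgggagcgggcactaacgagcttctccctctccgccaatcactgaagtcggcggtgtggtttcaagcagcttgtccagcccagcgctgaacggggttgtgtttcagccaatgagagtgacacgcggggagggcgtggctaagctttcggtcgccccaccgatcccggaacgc
Eif2ak2: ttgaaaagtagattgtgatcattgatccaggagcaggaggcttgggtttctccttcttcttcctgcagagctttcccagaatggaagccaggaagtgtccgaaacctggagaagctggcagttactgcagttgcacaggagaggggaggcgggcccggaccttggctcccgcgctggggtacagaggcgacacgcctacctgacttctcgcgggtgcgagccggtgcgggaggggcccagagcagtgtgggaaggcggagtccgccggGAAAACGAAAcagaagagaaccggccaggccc
Ifit1: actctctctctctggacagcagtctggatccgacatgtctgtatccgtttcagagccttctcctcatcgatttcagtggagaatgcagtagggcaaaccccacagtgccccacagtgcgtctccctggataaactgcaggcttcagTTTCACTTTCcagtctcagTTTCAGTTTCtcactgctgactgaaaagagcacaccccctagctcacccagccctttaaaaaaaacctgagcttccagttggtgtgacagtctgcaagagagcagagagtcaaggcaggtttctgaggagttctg
Igtp: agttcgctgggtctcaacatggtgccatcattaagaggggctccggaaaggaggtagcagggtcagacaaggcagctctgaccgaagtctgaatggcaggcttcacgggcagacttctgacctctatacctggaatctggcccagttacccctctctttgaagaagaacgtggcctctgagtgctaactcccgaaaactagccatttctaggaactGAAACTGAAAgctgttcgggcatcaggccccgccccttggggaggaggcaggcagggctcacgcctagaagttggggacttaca

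2 animals stood apart in these genes, and they belonged to different groups. The deviation of each gene from its mean over the 15 samples, averaged over the 42 genes, was 0.97 on the log2 scale in aFGFR1/KLB 43 and 1.32 in control 34, and lay between −0.52 and 0.30 in the other samples. For 14 of the 42 genes the highest of the 15 values was that of aFGFR1/KLB 43, and for the other 28 it was that of control 34. Over all genes tested these samples held the highest value for 3.01% and 14.7% of genes. By group the average deviation was −0.03 ± 0.58 in aFGFR1/KLB mice, −0.06 ± 0.36 in FGF21 mice and 0.09 ± 0.70 in control mice (SD, n = 5 each), so the means lay far closer together than the animals of any group.

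**Figure D1:**
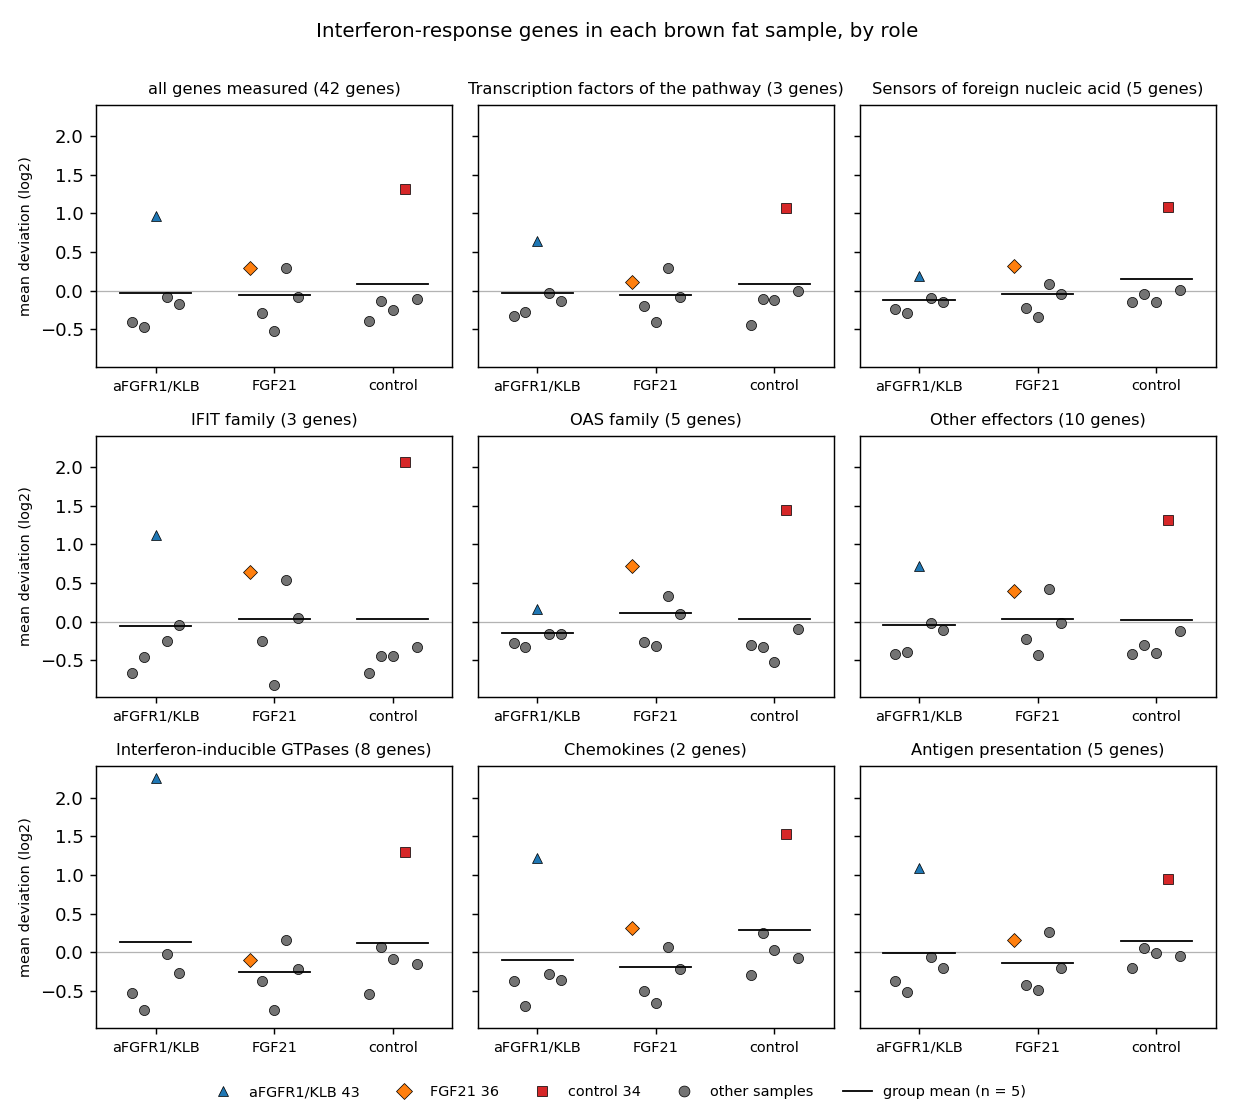
Mean deviation of the genes of each role from their mean over 15 samples (log2, vertical axis) in aFGFR1/KLB, FGF21 and control mice. Each point is 1 animal and each bar a group mean (n = 5); aFGFR1/KLB 43 and control 34 lie at 0.97 and 1.32 in the panel of all 42 genes, above every other sample.

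The comparison of aFGFR1/KLB with control mice asks whether activation of the receptor complex by the antibody changes these genes in brown fat. None of the 39 tested genes passed an adjusted p of 0.05 (limma, two-sided, Benjamini-Hochberg over all genes), against 5.18% of all genes, and 1 of 39 had an unadjusted p under 0.05, against 19.4% of all genes. 10 of the 42 fold changes were above 0 (against 45.1% of all genes) and 32 below, with a median of −0.15 on the log2 scale, where all genes had a median of −0.02. Their range was −0.56 (Cxcl9) to 0.36. Without control 34 the median was 0.17, so its sign rested on that 1 animal. Without aFGFR1/KLB 43 it stayed below 0, at −0.40.

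FGF21 against control asks the same of the natural ligand. Of the 39 genes 0 passed (limma), against 6.32% of all genes, and 1 had an unadjusted p under 0.05, against 20.4%. 14 of 42 fold changes were above 0 (against 45.5% of all genes) and 28 below, with a median of −0.12, where all genes had −0.02. Without control 34 this median was also 0.17. Set against each other, the aFGFR1/KLB and FGF21 mice gave 0 genes past the threshold (0.372% of all genes passed) and 0 with an unadjusted p under 0.05 (13.5% of all genes), with 22 fold changes above 0 (53.7% of all genes were), 20 below and a median of 0.02. Without aFGFR1/KLB 43 that median was −0.20.

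The spread of these genes set what could be seen. The standard error of their log2 fold changes had a median of 0.39, against 0.10 over all genes, and 38 of the 39 had a standard error above that of the median gene. The median standard deviation within groups was 0.68, against 0.16 over all genes, and 34 of the 39 lay above the 90th percentile of all genes in this spread. The 95% intervals of single genes accordingly reached from −1.50 to 1.24 for the antibody against control, from −1.79 to 1.37 for FGF21 against control and from −1.62 to 1.76 between the treatments. The intervals therefore include changes of more than 1 log2 unit in either direction for part of the genes, and a p above the threshold does not show that the groups were alike.

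**Figure D2:**
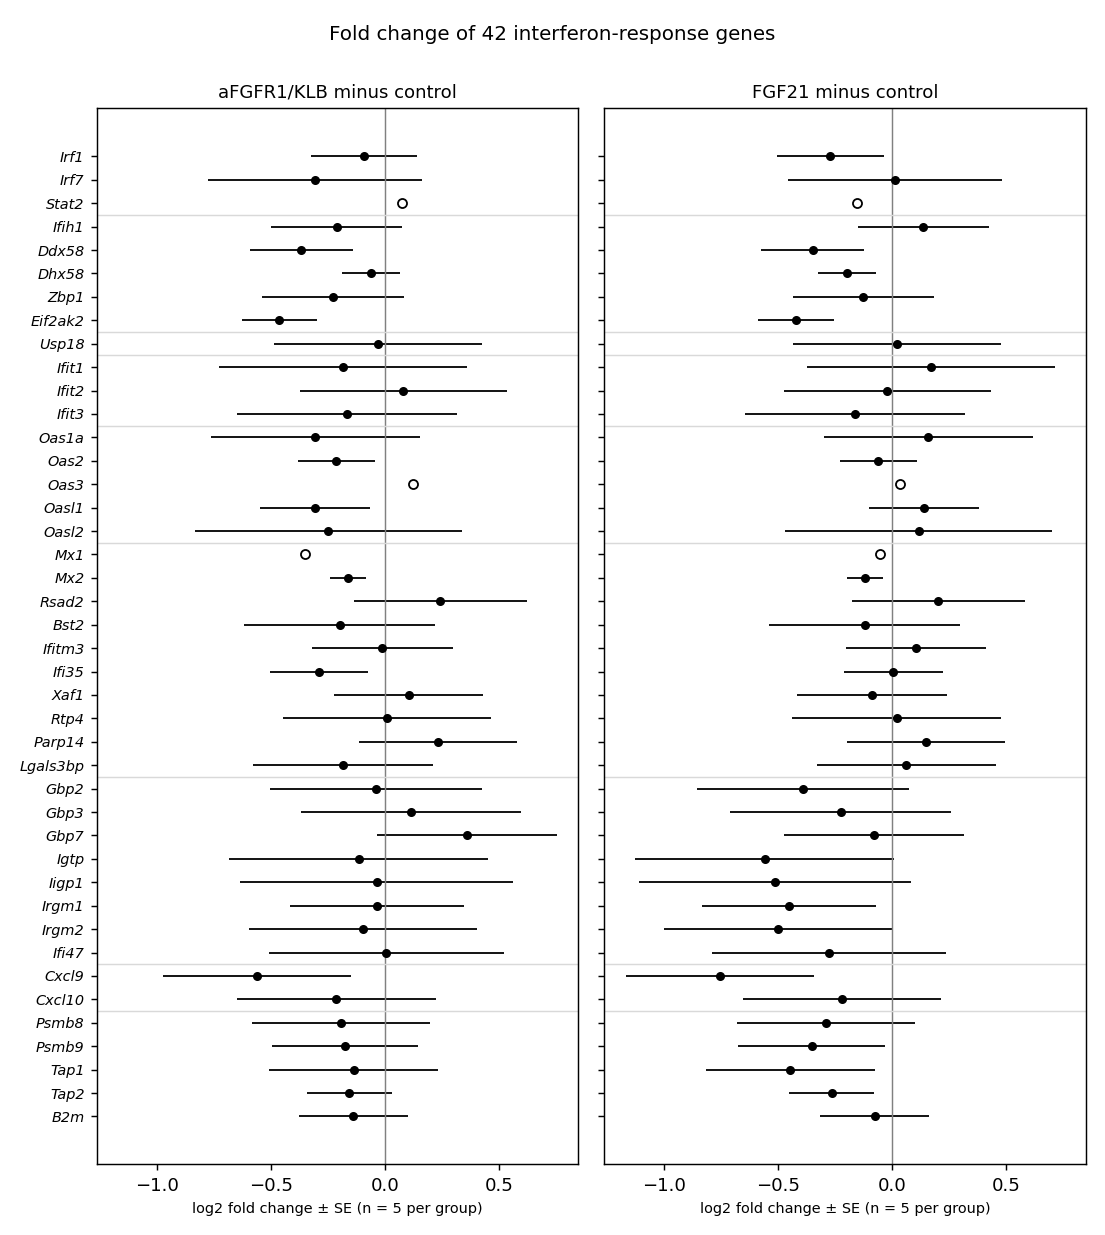
Log2 fold change (horizontal axis) of 42 genes for aFGFR1/KLB minus control (left) and FGF21 minus control (right), with bars of 1 standard error (n = 5 per group); open circles are Stat2, Oas3 and Mx1, under the limit on low intensities and without a test. 32 of 42 points lie below 0 on the left and 28 on the right, and no gene passed the threshold.

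In the values that follow, the animals of each group stand in the order of their numbers, as log2 normalised intensity of the gene's probe set. A level may be compared between samples but not between genes. Irf1, a transcription factor induced by interferon gamma, had 8.85, 8.89, 10.29, 9.02 and 9.004 in aFGFR1/KLB mice, 9.17, 9.06, 8.83, 9.18 and 8.93 in FGF21 mice and 9.03, 9.38, 9.24, 9.79 and 9.09 in control mice. aFGFR1/KLB 43 was highest and the groups overlapped, with −0.09 ± 0.23 for the antibody (log2 fold change ± SE, limma adjusted p = 0.882) and −0.27 ± 0.23 for FGF21 against control (adjusted p = 0.579). Irf7, the main driver of type I interferon transcription, had 6.89, 6.81, 7.71, 7.24 and 7.02 in aFGFR1/KLB mice, 7.88, 6.997, 6.65, 8.30 and 7.44 in FGF21 mice and 6.49, 6.70, 6.99, 9.44 and 7.58 in control mice. Here control 34 was the highest of 15 and FGF21 39 came second. The fold changes were −0.31 ± 0.47 (adjusted p = 0.79) and 0.01 ± 0.47 (adjusted p = 0.991). For Stat2, a transcription factor of the type I interferon response, the levels were 4.82, 5.03, 5.50, 5.19 and 5.13 in aFGFR1/KLB mice, 4.87, 4.90, 4.87, 4.95 and 4.93 in FGF21 mice and 4.72, 5.16, 4.98, 5.54 and 4.89 in control mice, near the limit on low intensities. The 5 FGF21 values lay between 4.87 and 4.95, inside the range of both other groups.

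Among the 5 sensors of foreign nucleic acid, Eif2ak2 had the smallest adjusted p of the 39 genes in both comparisons with control. It encodes PKR, the kinase that halts translation when it binds double-stranded RNA. Its levels were 6.61, 6.81, 6.61, 6.72 and 6.72 in aFGFR1/KLB mice, 7.16, 6.62, 6.49, 6.81 and 6.59 in FGF21 mice and 6.84, 7.03, 7.07, 7.85 and 6.99 in control mice. All 5 aFGFR1/KLB values lay below all 5 control values, the only one of the 39 genes whose groups did not overlap in that comparison, where 8.61% of all genes did not overlap (4.17% with the antibody lower). The FGF21 values overlapped the controls through FGF21 36 alone. Eif2ak2 differed by −0.46 ± 0.17 with the antibody (adjusted p = 0.126, 95% interval −0.82 to −0.11) and by −0.42 ± 0.17 with FGF21 (adjusted p = 0.159), and neither difference passed. aFGFR1/KLB 43, which had high levels of most other genes described here, was among the lowest for Eif2ak2.

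The result for Eif2ak2 depended on 2 samples. Without control 34 and FGF21 36 together it fell, with a log2 fold change of −0.29 ± 0.07 for the antibody (limma adjusted p = 0.0196) and −0.36 ± 0.08 for FGF21 (adjusted p = 0.0071), where 6.97% and 9.46% of all genes passed as lower. With the macrophage marker mean of each sample as a covariate the differences were −0.43 ± 0.11 with the antibody (adjusted p = 0.0187) and −0.55 ± 0.11 with FGF21 (adjusted p = 0.00666), where 6.47% and 6.00% of genes passed as lower. With array weights the adjusted p was 0.0276 with the antibody and 0.00731 with FGF21, where 9.1% and 12.9% of genes passed as lower. With aFGFR1/KLB 43 left out beside control 34 and FGF21 36, a choice made after the values were seen, the adjusted p was 0.0484 and 0.00975, where 5.56% and 8.71% of genes passed as lower. Without control 34 alone the adjusted p was 0.134 and 0.146. The other 2 probe sets of Eif2ak2 above the limit gave −0.13 and −0.07 with the antibody and −0.11 and −0.05 with FGF21 and did not pass (adjusted p 0.735 to 0.828 over all probe sets) with all samples, and they were not fitted in the other settings.

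The other sensors were the RNA helicases Ifih1 (MDA5), Ddx58 (RIG-I) and Dhx58 (LGP2) and the Z-form nucleic acid sensor Zbp1. Their fold changes were between −0.37 and −0.06 with the antibody and between −0.35 and 0.14 with FGF21, none past the threshold. Control 34 held the highest value of all 5 sensors. With the macrophage covariate Ddx58 also fell with FGF21 (−0.54 ± 0.13, limma adjusted p = 0.0198), the one further gene of the 39 past the threshold in that fit.

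Usp18, which strips Isg15 from proteins and damps the type I interferon receptor, had 6.57, 6.58, 7.60, 7.14 and 6.79 in aFGFR1/KLB mice, 7.34, 6.84, 6.18, 7.59 and 7.01 in FGF21 mice and 6.35, 6.49, 6.16, 9.05 and 6.78 in control mice. Control 34 stood 2.63 above the median of the other controls, the groups overlapped, and the fold changes were −0.03 ± 0.46 (adjusted p = 0.981) and 0.02 ± 0.46 (adjusted p = 0.985). Ifit1, a protein that holds back foreign RNA from translation, had 6.35, 6.79, 8.28, 7.02 and 7.20 in aFGFR1/KLB mice, 8.20, 7.17, 6.46, 8.14 and 7.45 in FGF21 mice and 6.48, 6.94, 6.53, 9.57 and 7.04 in control mice. Control 34 was highest, aFGFR1/KLB 43, FGF21 36 and FGF21 39 lay close together next, and the lowest value was that of aFGFR1/KLB 41. Ifit1 differed by −0.18 ± 0.54 with the antibody and by 0.17 ± 0.54 with FGF21 (adjusted p = 0.902 and 0.898), and Ifit2 and Ifit3 by 0.08 and −0.17 with the antibody and −0.02 and −0.16 with FGF21.

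The OAS family makes oligoadenylates that switch on an RNA-degrading enzyme, with Oasl1 and Oasl2 as related proteins. Oasl1, which in mouse holds back Irf7 translation, had 7.09, 6.79, 7.09, 7.08 and 6.78 in aFGFR1/KLB mice, 7.99, 6.99, 7.04, 7.62 and 7.40 in FGF21 mice and 7.13, 7.09, 6.84, 8.26 and 7.04 in control mice. The aFGFR1/KLB values lay between 6.78 and 7.09, control 34 was highest and FGF21 36 second. Oasl1 had the smallest adjusted p between the treatments, at −0.45 ± 0.24 for aFGFR1/KLB minus FGF21 (adjusted p = 0.425). Oasl2 spanned 3.39 log2 units over the samples, with 5.07, 5.29, 6.56, 5.44 and 5.52 in aFGFR1/KLB mice, 7.14, 5.31, 4.94, 6.39 and 5.92 in FGF21 mice and 4.92, 5.10, 5.10, 8.31 and 5.70 in control mice. Control 34 was 3.21 above the median of the other controls, which was the largest distance of any gene in that animal, and FGF21 36 came second among the 15. In the OAS family 4 of 5 fold changes were below 0 with the antibody (median −0.25) and 4 of 5 above 0 with FGF21 (median 0.12), none past the threshold. Without control 34, 3 of 5 were above 0 with the antibody (median 0.19) and 5 of 5 with FGF21 (median 0.38).

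Among 10 other interferon-induced effectors, Mx2, a dynamin-like antiviral GTPase, had the smallest unadjusted p. Its levels were 5.76, 5.67, 5.81, 5.83 and 5.67 in aFGFR1/KLB mice, 5.72, 5.78, 5.63, 6.01 and 5.83 in FGF21 mice and 5.94, 5.85, 5.89, 6.11 and 5.78 in control mice. Control 34 was highest here too, but the samples spanned only 0.48, and Mx2 differed by −0.16 ± 0.08 with the antibody (adjusted p = 0.265) and −0.12 ± 0.08 with FGF21 (adjusted p = 0.429). The other 9 were Mx1, Rsad2 (viperin), Bst2 (tetherin), Ifitm3, which hinders viral entry, Ifi35, Xaf1, Rtp4, the ADP-ribosyl transferase Parp14 and the secreted protein Lgals3bp. Together with Mx2 they ran from −0.35 to 0.24 with the antibody, 4 above 0 and 6 below, and from −0.12 to 0.20 with FGF21, 6 above 0 and 4 below.

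The 8 interferon-inducible GTPases, which act on the vacuoles of intracellular pathogens, had the widest span over the animals. Igtp had 7.16, 7.10, 10.76, 7.88 and 7.54 in aFGFR1/KLB mice, 7.84, 7.44, 7.09, 8.20 and 7.64 in FGF21 mice and 7.56, 8.26, 8.11, 9.24 and 7.84 in control mice. aFGFR1/KLB 43 lay 3.42 above the median of the other antibody-treated mice, while the other 4 of that group lay between 7.10 and 7.88. Iigp1, whose range of 3.87 was the widest of the 42 genes, had 8.51, 8.01, 11.87, 9.26 and 8.70 in aFGFR1/KLB mice, 8.86, 8.59, 8.19, 9.48 and 8.85 in FGF21 mice and 8.34, 9.48, 9.01, 10.62 and 9.08 in control mice. The same animal was highest, with control 34 second. Irgm1, which protects host membranes from the other GTPases of its family, had 7.55, 7.62, 9.69, 8.09 and 8.12 in aFGFR1/KLB mice, 8.09, 7.83, 7.32, 8.01 and 7.73 in FGF21 mice and 7.79, 8.02, 8.16, 9.44 and 7.83 in control mice, again with aFGFR1/KLB 43 and control 34 on top. None passed in any comparison, with adjusted p of 0.943, 0.983 and 0.974 for the antibody against control and 0.645, 0.695 and 0.568 for FGF21 against control.

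As a set, the 8 GTPases showed how far leaving out 1 animal moved the size or the direction of the differences. For FGF21 minus control all 8 were below 0, with a median of −0.42, and without control 34 the median was −0.16 with 3 above 0 and 5 below. For aFGFR1/KLB minus FGF21 all 8 were above 0, with a median of 0.41, and without aFGFR1/KLB 43 the median was −0.16, with 1 above 0 and 7 below. For aFGFR1/KLB minus control 3 were above 0 and 5 below (median −0.04). All 8 were above 0 without control 34 (median 0.28) and all 8 below 0 without aFGFR1/KLB 43 (median −0.54).

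Cxcl9 and Cxcl10 are chemokines that draw CXCR3-bearing T cells and NK cells. Cxcl9 had 8.56, 7.92, 10.87, 8.71 and 8.64 in aFGFR1/KLB mice, 8.92, 8.63, 8.37, 9.15 and 8.68 in FGF21 mice and 9.04, 9.79, 9.53, 10.02 and 9.13 in control mice. 4 of the 5 aFGFR1/KLB values lay below every control value, and the other, that of animal 43, was the highest of the series. With all samples Cxcl9 differed by −0.56 ± 0.41 with the antibody (adjusted p = 0.508) and by −0.76 ± 0.41 with FGF21 (adjusted p = 0.332). Without aFGFR1/KLB 43 it fell with the antibody (−1.05 ± 0.22, limma adjusted p = 0.0269), where 1.53% of all genes passed as lower, and FGF21 against control then had an adjusted p of 0.0556. Without control 34 as well, an alternative chosen after the values were seen, the antibody difference was −0.92 ± 0.21 (adjusted p = 0.0256, with 3.83% of all genes lower) and that of FGF21 −0.63 ± 0.20 (adjusted p = 0.058). With all samples the second probe set of Cxcl9 above the limit differed by −0.55 with the antibody and −0.74 with FGF21. Neither passed (limma adjusted p = 0.495 and 0.326 over all probe sets), and this probe set was not fitted without aFGFR1/KLB 43. Cxcl10 had 5.57, 5.56, 6.45, 5.58 and 5.52 in aFGFR1/KLB mice, 6.59, 5.24, 5.20, 5.87 and 5.76 in FGF21 mice and 5.25, 5.58, 5.40, 7.92 and 5.58 in control mice. Control 34 was the highest for Cxcl10, FGF21 36 came second, and its fold changes were −0.21 ± 0.44 and −0.22 ± 0.44 (adjusted p = 0.852 and 0.834).

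**Figure D3:**
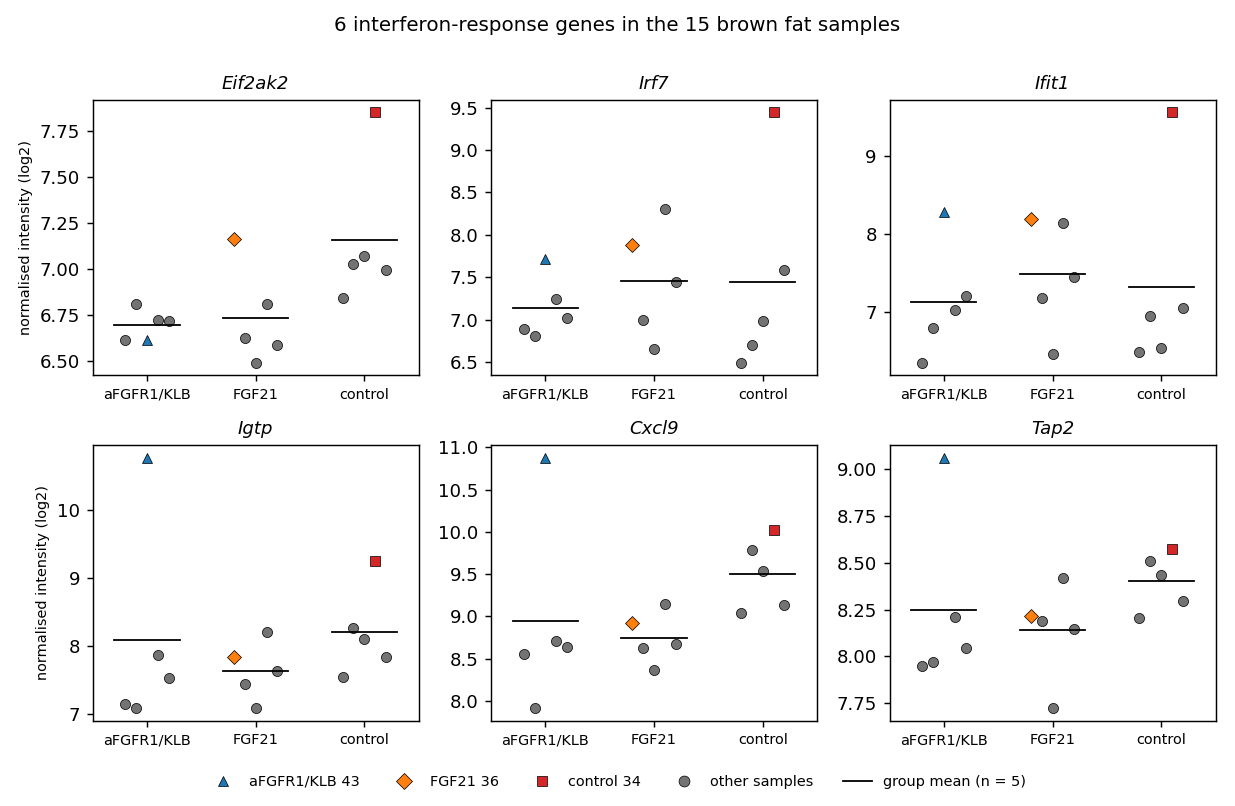
Log2 normalised intensity (vertical axis, a scale of its own in each panel) of Eif2ak2, Irf7, Ifit1, Igtp, Cxcl9 and Tap2 in aFGFR1/KLB, FGF21 and control mice, 1 point per animal and a bar at each group mean (n = 5). All aFGFR1/KLB points of Eif2ak2 lie below all control points, and aFGFR1/KLB 43 is the highest sample for Igtp, Cxcl9 and Tap2.

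Of the antigen presentation genes, Psmb8, a catalytic subunit of the immunoproteasome, had 8.16, 8.13, 10.07, 8.66 and 8.46 in aFGFR1/KLB mice, 9.10, 8.24, 8.05, 9.11 and 8.51 in FGF21 mice and 8.37, 8.74, 8.58, 10.13 and 8.62 in control mice. aFGFR1/KLB 43 and control 34 were nearly equal and well above the rest. Tap2, which with Tap1 carries peptides into the endoplasmic reticulum, had 7.95, 7.97, 9.06, 8.21 and 8.04 in aFGFR1/KLB mice, 8.22, 8.19, 7.72, 8.42 and 8.15 in FGF21 mice and 8.20, 8.51, 8.44, 8.57 and 8.30 in control mice. The 5 controls lay between 8.20 and 8.57 and 4 of the 5 aFGFR1/KLB values between 7.95 and 8.21, but aFGFR1/KLB 43 was the highest of all. B2m, the light chain of MHC class I, had 13.10, 12.59, 13.65, 13.13 and 13.27 in aFGFR1/KLB mice, 13.63, 12.53, 13.25, 13.46 and 13.18 in FGF21 mice and 13.02, 13.07, 13.04, 14.05 and 13.25 in control mice, with control 34 highest and FGF21 37 lowest. The fold changes were −0.19 ± 0.39, −0.16 ± 0.19 and −0.14 ± 0.24 with the antibody (adjusted p = 0.851, 0.714 and 0.819) and −0.29 ± 0.39, −0.27 ± 0.19 and −0.08 ± 0.24 with FGF21 (adjusted p = 0.748, 0.475 and 0.896). With Psmb9 and Tap1 all 5 genes were below 0 against control in both comparisons, with medians of −0.16 and −0.29. Without control 34, 4 of 5 were above 0 with the antibody (median 0.05) and 2 of 5 with FGF21 (median −0.14).

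The 2 animals that stood apart were both high for most of the genes, and the size of the distance differed by role. Measured from the median of the other 4 animals of its group, aFGFR1/KLB 43 was higher for 39 of 42 genes, by a median of 1.23 on the log2 scale (2.34-fold), and by more than 1 for 23 genes (54.8%, against 0.364% of all genes). Control 34 was higher for 42 of 42 genes, by a median of 1.56 (2.94-fold), and by more than 1 for 30 genes (71.4%, against 6.02% of all genes). In aFGFR1/KLB 43 the GTPases led, with a median distance of 2.54 against 1.55 in control 34, and antigen presentation genes had 1.68 against 1.01. The IFIT family had 1.45 in aFGFR1/KLB 43 against 2.43 in control 34, the sensors 0.22 against 1.30 and the OAS family 0.15 against 1.19. All 8 GTPases, Cxcl9, Irf1, Psmb9, Tap1, Tap2 and Parp14 had their highest value in aFGFR1/KLB 43. The largest differences of level between these samples were 1.61 for Gbp2, 1.52 for Igtp and 1.49 for Gbp7, higher in aFGFR1/KLB 43, and −1.99 for Mx1, −1.89 for Oas1a and −1.75 for Oasl2, lower in aFGFR1/KLB 43. Each is 1 animal, so these values have no replicate and no test.

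**Figure D4:**
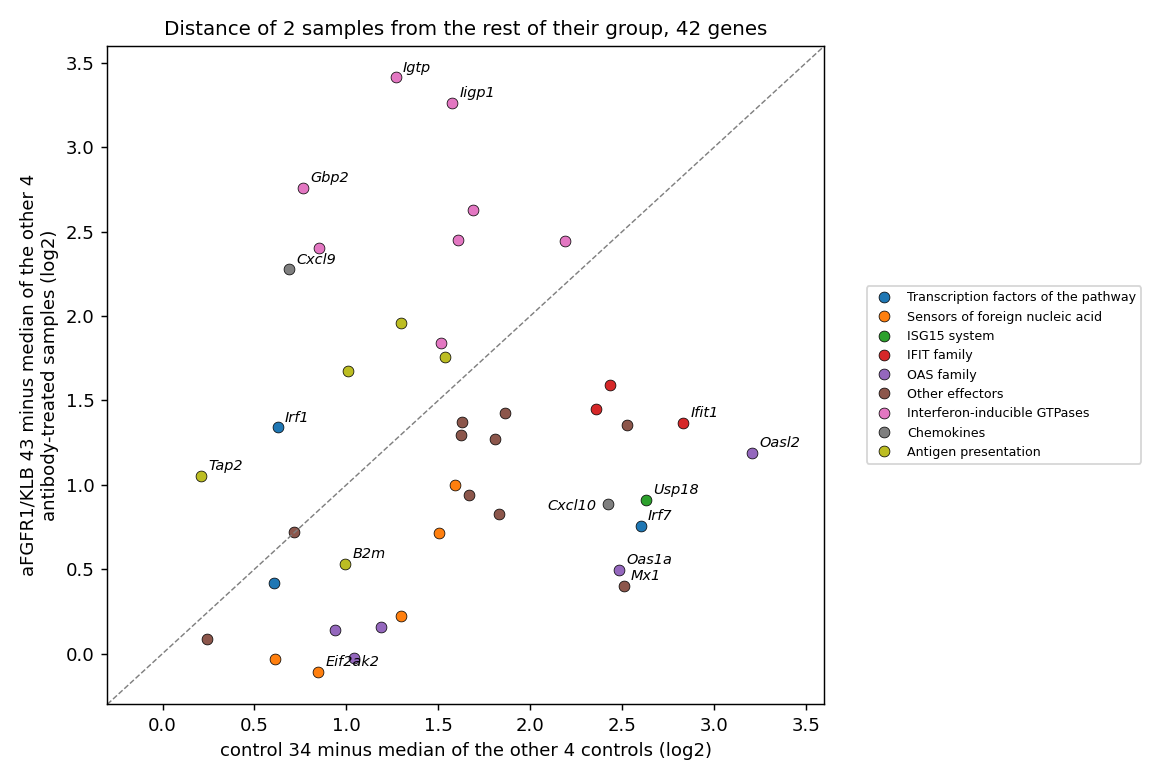
Distance of aFGFR1/KLB 43 from the median of the other 4 antibody-treated samples (log2, vertical axis) against the distance of control 34 from the median of the other 4 controls (log2, horizontal axis), 1 point per gene, coloured by role. The dashed line marks equal distances; Igtp (3.42 against 1.27) and the other GTPases lie above it, and Oasl2 (1.19 against 3.21) and the OAS and IFIT families lie below it.

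FGF21 36 was less marked for these genes. Its 8 skeletal muscle markers lay on average 5.36 above the median of the other FGF21 mice, and such markers were also high in aFGFR1/KLB 45 (5.87), aFGFR1/KLB 41 (4.46) and FGF21 37 (3.56). FGF21 36 was higher than the median of the other FGF21 mice for 37 of 42 genes (against 43.8% of all genes), by a median of 0.44. It was higher by more than 1 for 4 (9.52%, against 5.66% of all genes), with Oas1a foremost at 1.59. FGF21 39 was higher for 42 of 42 (against 53.4% of all genes) by a median of 0.45. FGF21 38 was higher for 1 of 42 (against 51.5%), with a median of −0.53. Without control 34 and FGF21 36 together, 1 of 39 genes passed in each comparison with control, Eif2ak2 in both, and the median over the 42 genes was 0.17 for the antibody, 0.11 for FGF21 and 0.15 between the treatments.

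The genes moved together from animal to animal. After the group means were removed, the median Pearson correlation over the 861 pairs of genes was 0.82 across the 15 samples, 793 pairs (92.1%) were above 0.5 and 0 were negative. Without aFGFR1/KLB 43 and control 34 the median was 0.68, 648 pairs (75.3%) were above 0.5 and 16 were negative. Genes of each pair share their arrays, and these values describe the data without a test. The same correlation was not computed over all genes or for other lists, so it is not shown to be particular to these genes. Within roles of more than 1 gene the median was 0.96 for the GTPases and for the IFIT family, 0.89 for the other effectors, 0.87 for antigen presentation, 0.82 for the OAS family, 0.81 for the sensors, 0.71 for the transcription factors and 0.55 for the pair of chemokines. Several roles correlated more with another role than within themselves, such as the chemokines with the GTPases (0.85) and the sensors with Usp18 (0.91). Between the GTPases and antigen presentation genes the median was 0.93, and between the GTPases and the OAS family it was 0.57. Without the same 2 samples these medians between roles were 0.81 and 0.39. Named after their values were seen, the closest pairs were Irgm2 with Tap1 and Psmb9 with Tap1, each at 0.99.

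Macrophage and fibroblast markers were high in control 34 and FGF21 36. In macrophage markers aFGFR1/KLB 43 lay within the range of the remaining animals. The mean of 15 macrophage markers deviated by 0.24 in aFGFR1/KLB 43, 1.65 in FGF21 36 and 1.46 in control 34, and ranged from −0.90 to 0.56 in the others. Against the rest of its group, the macrophage list was higher by 0.56 on average in aFGFR1/KLB 43, where 1 of 15 markers was more than 1 above, by 1.51 in FGF21 36 (13 of 15) and by 1.99 in control 34 (13 of 15). Fibroblast markers were higher by 0.17 in aFGFR1/KLB 43, 1.11 in FGF21 36 and 1.78 in control 34, and T and NK cell markers by 0.19, 0.10 and 0.70. Among the lymphocyte genes Gzma, a protease of cytotoxic cells, was higher by 1.31 in aFGFR1/KLB 43, 1.30 in FGF21 36 and 2.52 in control 34. Cd3e, a chain of the T cell receptor complex, differed by −0.26, −0.002 and 0.01 in the same order. Brown adipocyte markers differed from the rest of the group by −0.04 on average in aFGFR1/KLB 43, −0.36 in FGF21 36 and −0.20 in control 34. The part of these cell types in the levels of the interferon-stimulated genes was not tested. With the macrophage mean as a covariate 1 of the 39 genes passed with the antibody and 2 with FGF21, all lower, as given above. Of all genes 12% and 10.9% passed in that fit, 6.47% and 6% as lower.

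**Figure D5:**
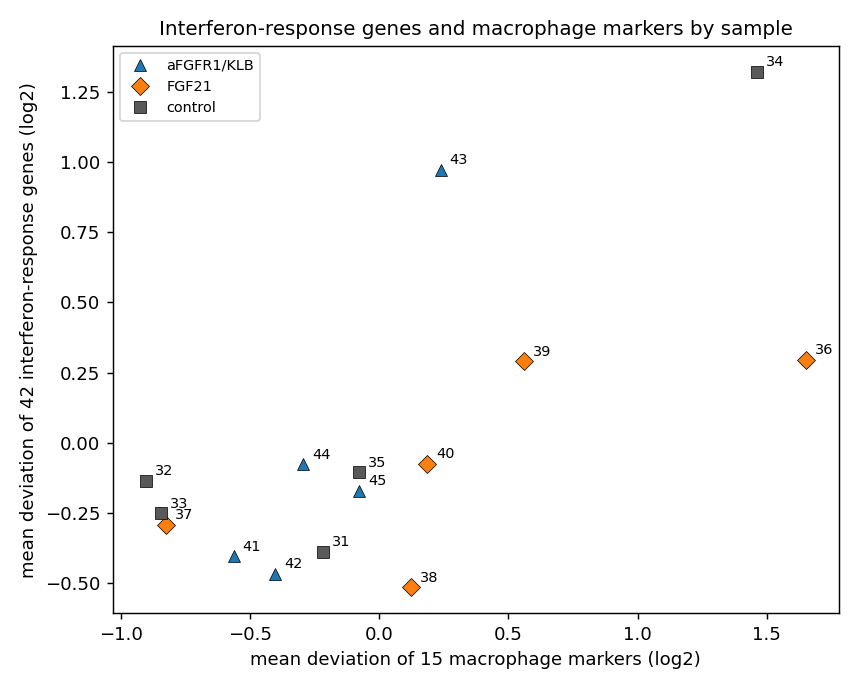
Mean deviation of the 42 interferon-response genes (log2, vertical axis) against that of 15 macrophage markers (log2, horizontal axis), 1 point per sample with its animal number, for aFGFR1/KLB, FGF21 and control mice. Control 34 is high on both axes, FGF21 36 is highest in macrophage markers (1.65) and at 0.30 in the interferon-response genes, and aFGFR1/KLB 43 is at 0.24 and 0.97.

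The interferon genes themselves were in the lower part of the array's range. Ifnb1, Ifna1, Ifna2, Ifna4, Ifna5 and Ifng averaged between 3.66 and 4.99 and were all under the limit on low intensities. Ifng differed from the rest of its group by −0.08 in aFGFR1/KLB 43 and 0.29 in control 34. The receptor genes Ifnar1, Ifnar2, Ifngr1, Ifngr2 and Il10rb were above the limit and 0 of 5 passed in any comparison (limma), while at an unadjusted p under 0.05 there were 2 lower with the antibody (19.4% of all genes passed in either direction), 2 higher with FGF21 (20.4%) and 2 lower with the antibody than with FGF21 (13.5%). Irf9, which completes the type I interferon complex, was higher than its group median by 0.96 in aFGFR1/KLB 43 and 1.12 in control 34. Nlrc5, the regulator that drives MHC class I genes, was higher by 1.45 and 0.82.

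Of the other genes of the pathway, counted from lists that hold none of the 44, few passed. Among 21 signalling genes tested, 0 passed against control with the antibody (5.18% of all genes did) or with FGF21 (6.32%). Stat3, a transducer of many cytokines, was lower with the antibody than with FGF21. Its levels were 9.03, 9.06, 9.36, 9.09 and 9.22 in aFGFR1/KLB mice, 9.74, 9.54, 9.57, 9.70 and 9.59 in FGF21 mice and 9.20, 9.35, 9.30, 9.61 and 9.33 in control mice. The difference was −0.48 ± 0.08 (limma adjusted p = 0.0265), where 0.243% of all genes passed as lower. The call was lost in 6 of the 15 fits without 1 sample, with an adjusted p of up to 0.0924 without aFGFR1/KLB 42. It was also lost with the mean of all probe sets of a gene (−0.31, adjusted p = 0.107) and with arrays centred on ribosomal protein genes (adjusted p = 0.121). Without control 34, Stat3 was higher with FGF21 than in control mice (0.33, limma adjusted p = 0.00856), where 6.2% of all genes passed as higher. Its second bright probe set had −0.44 (adjusted p = 0.0636 over all probe sets).

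Among 11 genes of the MHC class I pathway, Erap1, the peptidase that trims peptides for loading, fell with both treatments. It had 7.29, 6.93, 7.55, 7.13 and 7.18 in aFGFR1/KLB mice, 7.36, 7.16, 7.27, 7.38 and 7.39 in FGF21 mice and 7.50, 7.82, 7.84, 8.01 and 7.54 in control mice. The fold changes were −0.53 ± 0.12 with the antibody (limma adjusted p = 0.0177) and −0.43 ± 0.12 with FGF21 (adjusted p = 0.0395). In these comparisons 2.49% and 3.68% of all genes passed as lower. With the antibody, aFGFR1/KLB 43 overlapped the controls. The antibody call was lost without aFGFR1/KLB 42 (adjusted p = 0.0508) and the FGF21 call in 9 of 15 fits without 1 sample, with an adjusted p of up to 0.0997 without control 32. With the mean of all probe sets of a gene both calls were lost (adjusted p = 0.0999 with the antibody and 0.099 with FGF21), as they were with arrays centred on ribosomal protein genes (0.0935 and 0.0953). The second probe set of Erap1 had −0.22 and −0.29 and did not pass. Tapbpl, a peptide editor of MHC class I, had 7.43, 7.65, 8.04, 7.65 and 7.51 in aFGFR1/KLB mice, 7.29, 7.50, 7.46, 7.63 and 7.43 in FGF21 mice and 8.001, 7.94, 7.82, 8.06 and 7.73 in control mice. It fell with FGF21 (−0.45 ± 0.11, limma adjusted p = 0.0207) and differed by −0.26 ± 0.11 with the antibody (adjusted p = 0.194). The FGF21 call was lost without control 31 (limma adjusted p = 0.0534), without control 32 (0.054) and with arrays centred on ribosomal protein genes (0.14). Without aFGFR1/KLB 43 Tapbpl also fell with the antibody (−0.35, limma adjusted p = 0.0425), where 1.53% of all genes passed as lower. Of 7 tested genes of MHC class II and 25 further interferon-induced genes, 0 passed in any of the 3 comparisons (limma), where 5.18% of all genes passed with the antibody, 6.32% with FGF21 and 0.372% between the treatments. At an unadjusted p under 0.05 there was 1, lower with the antibody than with FGF21, where 19.4%, 20.4% and 13.5% of all genes passed in these comparisons.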

How the data were processed

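Total RNA of mouse interscapular brown fat was measured on 15 arrays, 5 per group, and groups were taken from the sample titles. The series' design text calls them biological replicates. The deposited values are linear normalised intensities, 1 for each probe set in each sample. RMA, a method that corrects background, equalises the distributions and summarises probes, is named in the submitters' processing notes, and no version or chip definition is given in the sources used here. RMA's quantile step forces all arrays to 1 distribution, so a change shared by most genes would not show. The log2 of the deposited intensity was used without renormalising. Array medians lay between 50.6 and 52.1, and samples correlated at 0.925 to 0.996. Precision is limited by the number of arrays, which have no read depth.

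The platform annotation gave a single gene symbol to 34958 of the 45101 probe sets and several to 932, and did not list 9211. Each of 18194 genes was represented by its probe set of highest mean, and the 13174 brighter on average than 40% of probe sets were tested. A one-way model of the 3 groups was fitted to all 15 samples with limma 3.58.1 in R 4.3.3 (lmFit, eBayes, two-sided, 12 residual degrees of freedom), with Benjamini-Hochberg adjustment over all genes of a comparison and a threshold of 0.05. Every adjusted p in the text is limma's. The p-values set each group difference against the spread between animals within groups, an estimate that limma draws partly from all genes.

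The genes, their roles and the marker lists were all chosen with earlier results of these data known. Values by sample are given for the gene of each role with the smallest unadjusted p, for Irf7, Stat2, Cxcl10, Psmb8 and B2m, and for the 3 genes of widest range; other pathway genes are named where they passed. Alternatives were each sample left out, control 34 and FGF21 36 left out together, other filters, probe set averaging, quantile or median or ribosomal gene centring, an offset before log2, array weights, a trend in the prior, the macrophage mean as a covariate, and only the 10 samples compared. Leaving out control 34 with aFGFR1/KLB 43, with or without FGF21 36, was chosen after seeing the data. RefSeq sequences (GRCm38.p6) served for promoters alone. No list was tested as a set.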

Additional observations from a re-analysis of the deposited data

Results flagged for a closer look

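In 43 of 126 groups of 5 animals (42 genes in 3 groups), the highest animal was farther from the next than Dixon's 95% criterion allows for 5 values. Chance alone gives such a gap in about 5% of groups, and the genes share their arrays, so these groups are not independent. Every one of the 43 was a high value of either aFGFR1/KLB 43 or control 34, and no FGF21 animal met the criterion. All values are log2 normalised intensities.

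aFGFR1/KLB 43 stood apart from the other antibody-treated mice for 17 genes. They were Irf1 (10.29), Zbp1 (7.36), Ifit2 (8.99), Xaf1 (9.29), Parp14 (9.26) and Gbp2 (12.10). The others were Gbp7 (10.94), Igtp (10.76), Irgm1 (9.69), Irgm2 (10.15), Ifi47 (9.96), Cxcl9 (10.87), Cxcl10 (6.45), Psmb8 (10.07), Psmb9 (9.32), Tap1 (9.34) and Tap2 (9.06).

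Control 34 stood apart from the other controls for 26 genes. Among sensors, the IFIT and OAS families and Usp18 these were Ifih1 (9.38), Ddx58 (8.89), Eif2ak2 (7.85), Usp18 (9.05), Ifit1 (9.57), Ifit2 (9.53), Ifit3 (9.85), Oas1a (10.32), Oas2 (7.82), Oasl1 (8.26) and Oasl2 (8.31). The others were Mx1 (6.96), Rsad2 (10.87), Ifitm3 (12.40), Xaf1 (9.42), Rtp4 (10.84), Parp14 (9.20), Gbp3 (10.19), Irgm1 (9.44), Irgm2 (9.45), Ifi47 (9.82), Cxcl10 (7.92), Psmb8 (10.13), Psmb9 (9.001), Tap1 (8.97) and B2m (14.05).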

How the results depend on the processing

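Against the count of 0 genes of the 39 past the threshold, other settings gave between 0 and 2. With the antibody against control 1 gene passed, always lower, without control 34 and FGF21 36 together, with array weights and with the macrophage covariate (Eif2ak2 in each), and without aFGFR1/KLB 43 and control 34 (Cxcl9). With aFGFR1/KLB 43, control 34 and FGF21 36 all left out, 2 passed (Eif2ak2 and Cxcl9). With FGF21 against control 1 passed without control 34 and FGF21 36, with array weights and with all 3 samples left out, and 2 with the macrophage covariate. Leaving out single samples gave 0 to 1 genes for the antibody against control (1 being Cxcl9 without aFGFR1/KLB 43) and 0 in the other comparisons. The settings that left out aFGFR1/KLB 43 and control 34 together were chosen after seeing the data. Single-sample fits moved the median over the 42 genes between −0.40 and 0.17 for the antibody against control, between −0.22 and 0.17 for FGF21 against control and between −0.20 and 0.15 for the antibody against FGF21, the highest without control 34, control 34 and FGF21 36, and the lowest without aFGFR1/KLB 43, control 31 and aFGFR1/KLB 43. With the macrophage covariate the median was −0.08, −0.36 and 0.31 in these comparisons, and with array weights it was 0.23, 0.10 and 0.15.

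The counts over all genes moved more. For the antibody against control 682 genes passed. The count was 1631 without control 34 and FGF21 36, 145 with ribosomal gene centring, 2307 with array weights, 1582 with the macrophage covariate and 1259 with all 3 samples left out, and single-sample fits gave 336 to 1140. For FGF21 against control 833 passed. The count was 2138, 179, 2855 and 1441 in the first 4 of those settings, 322 with only the 10 samples compared, 1871 without control 34 and aFGFR1/KLB 43, 1969 with all 3 left out, and 463 to 2097 in single-sample fits. Between the treatments 49 passed. The count was 241, 9, 832 and 156 in those 4 settings, 77 with a filter at the 60th percentile, 76 with an intensity trend, 87 with only the 10 samples compared, 106 without control 34 and aFGFR1/KLB 43, 130 with all 3 left out, and 10 to 251 in single-sample fits. Ribosomal gene centring moved the median of all genes for the antibody against control to 0.07, and that over the 42 genes to −0.05, and with it 112 genes were higher and 33 lower, against 354 and 328 without it. For FGF21 against control 119 were higher and 60 lower, against 348 and 485. The highest single-sample counts were all those without control 34, and the lowest those without aFGFR1/KLB 42, control 32 and FGF21 40. The cause of these shifts was not tested.

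No paired analysis was possible because the replicate numbers are not shared between groups. The signal of Stat2, Oas3 and Mx1 lay too low to test, and the number of arrays limits the precision of the others, whose log2 fold changes had a median standard error of 0.39.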

Other observations

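Genes of the MHC class II pathway, which presents antigen on macrophages and dendritic cells, differed between animals of the same group. Against the median of the rest of its group, the mean of 7 genes was higher by 0.91 in aFGFR1/KLB 43, by 1.30 in FGF21 36 and by 1.43 in control 34. FGF21 39 was higher by 0.79, with 3 of the 7 genes more than 1 above, as many as in aFGFR1/KLB 43. H2-Aa, a class II chain, was higher by 1.03 in aFGFR1/KLB 43, 1.54 in FGF21 36 and 1.49 in control 34. In the same order, Cd74, the invariant chain, was higher by 1.02, 1.66 and 1.35. Ctss, the protease that cuts the invariant chain, was higher by 0.99, 1.62 and 3.10. Of the further interferon-induced genes, Gbp6, a guanylate-binding GTPase, was higher by 2.24 in aFGFR1/KLB 43 and 0.77 in control 34, whereas Epsti1 was higher by 0.72 and 2.91 and Trim30a by 0.86 and 2.54. These are values of single animals without a test.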
